A study of Mus musculus with 4 samples.

Results

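The mitogen-activated protein (MAP) kinase cascade and the dual-specificity phosphatases that switch it off were followed in mouse hippocampal CA1 after foot shock. Members were all probe sets whose single gene symbol in the platform's gene table starts with Mapk, Map2k, Map3k, Map4k or Dusp. That gave 61 probe sets of 40 genes, out of 12488 probe sets on the array. All mice were young C57BL/6J males under the condition that the labels name shock alone. They were put into the context 2 h before training, received 3 shocks of 0.5 mA with 2 min in the context before each, and according to every label stayed in the chamber for 1 h after the last one. The 4 groups are total RNA of CA1 hippocampus at 1, 2, 4 and 6 h after the last shock, with 1 Affymetrix array each and with the number of animals per array not stated. No mice without shocks were analysed here, so a value at 1 time is set only against the other times. With 1 array per time there is no replicate error and no test was possible, so every difference below is a description of 4 arrays.

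A MAP kinase cascade passes a signal along a chain of kinases. A MAP kinase kinase kinase (MAP3K), sometimes after a MAP4K, phosphorylates a MAP kinase kinase (MAP2K), which phosphorylates the MAP kinase itself on a threonine and a tyrosine. Dual-specificity phosphatases remove both phosphates, and in neurons the transcription of several of them is itself induced by activity, as a negative feedback. The cascade is known to be needed in hippocampal neurons for lasting contextual memory, and its activity is set mainly by phosphorylation, which an RNA array does not read.

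Intensity here is the deposited linear value after each array was scaled to one trimmed mean, and a floor of 100.6 intensity units, the 40th percentile of all values, marks where probe sets were taken as too dim to compare. Of the 61 members, 33 were above the floor on all 4 arrays, 11 on some and 17 on none. Of all 12422 probe sets other than controls, 6448 were above it on all 4 arrays and 3830 on none. The 33 members cover 27 of the 40 genes. Where 4 intensities follow a gene without hours, they are in the order of time, 1, 2, 4 and 6 h. A probe set's intensity depends on its oligonucleotides, so levels are compared between arrays and not between genes. The arrays differed in technical controls. The ratio of the 3′ to the 5′ actin control was 1.84 and 2.70 at 1 h and 2 h, then 1.79 and 1.74 at 4 h and 6 h, and the Gapdh ratio was 3.98, 4.82, 3.85 and 3.24. Of 9 pyramidal neuron markers, 6 were on the array and 5 were above the floor throughout. The intensities of all their probe sets summed to 7899, 8627, 10343 and 10202 from 1 to 6 h. Nrgn was the brightest, at 3619, 4399, 4521 and 4781. Of 6 probe sets above the floor throughout, 3 were highest at 4 h, among them Wfs1 and Neurod6, and 2 at 6 h. Pou3f1 went the other way and was highest at 1 h, at 484, 455, 355 and 359. Camk2a was at or below 109.9 on all arrays and below the floor on 3 of them. Of 5 choroid plexus markers, 4 were on the array and 1 was above the floor throughout, with sums of 468, 456, 741 and 5385, led by Ttr at 4482 at 6 h. The part of these differences in the results below was not tested. The tissue holds neurons, glia and vessels, and fewer cells of a type cannot be told apart from less RNA per cell.

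Most members stayed within 1.5-fold over the 4 times, and the phosphatases Dusp1, Dusp2 and Dusp6 were highest at 2 h. Among the 33 members above the floor, the highest array stood 1.34-fold above the lowest at the median, from 1.06-fold to 2.09-fold, and over all 6448 probe sets above the floor the median was 1.32-fold. A span of at least 1.5-fold was found for 10 of 33 members (30.3%) and for 27.9% of all probe sets. The family as a whole was thus about as variable as the array. By role, this span was reached by 2 of 6 MAP kinase, 0 of 6 MAP2K and 4 of 8 MAP3K and MAP4K probe sets. It was also reached by 2 of 6 effectors and scaffolds and by 2 of 7 Dusp probe sets. Among these 33, Dusp2 at 6 h and Map3k4 at 1 h were the members that stood apart from each of the other 3 arrays by at least 1.5-fold. That is 1 of 33 above the other times, where 2.3% of all probe sets were, and 1 of 33 below them, where 4.22% were.

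**Figure D1:**
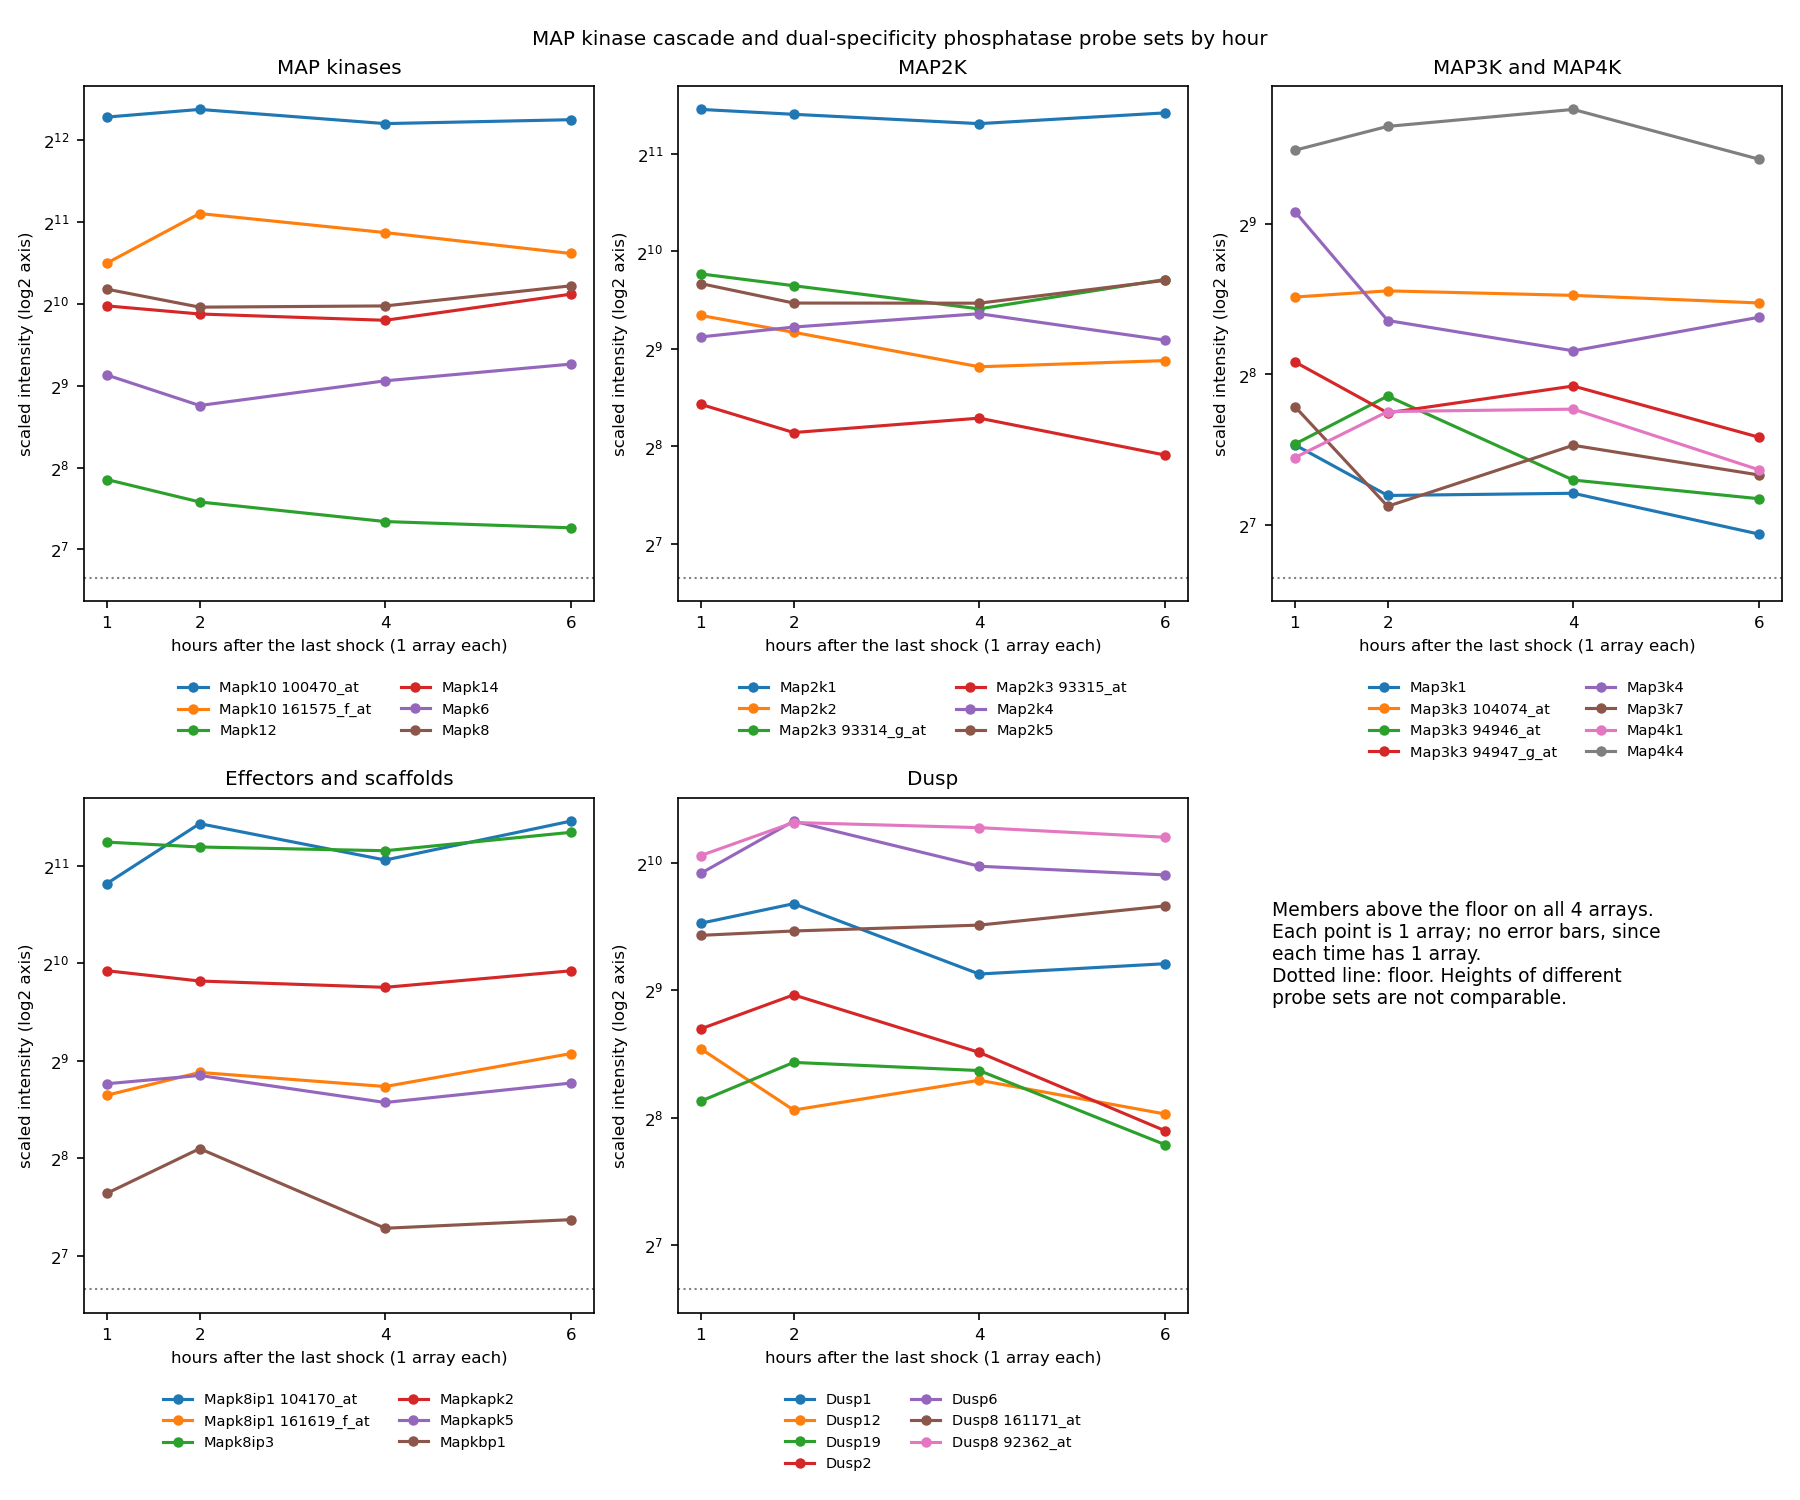
Scaled intensity (log2 axis) against hours after the last shock for the 33 members above the floor on all 4 arrays, in 5 panels by role. Each point is 1 array, the dotted line is the floor of 100.6, and there are no error bars because each time has 1 array. The brighter Mapk10 probe set and Map2k1 run nearly level, Map3k4 is highest at 1 h, and Dusp1, Dusp2 and Dusp6 peak at 2 h.

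Dual-specificity phosphatases were most often highest at 2 h. Of their 13 probe sets, 7 were above the floor on all 4 arrays, and 5 of these 7 were highest at 2 h, against 28.7% of all probe sets. After scaling to a common median the count at 2 h was 3 of 7, against 18.9% of all probe sets, and these 3 were Dusp1, Dusp2 and Dusp6. The median of the 8 Dusp probe sets with a mean above the floor was 0.24 (log2) above the other times at 2 h and −0.20 at 6 h, where the medians of all probe sets were 0.02 and −0.01. The 2 h array also had the highest actin ratio, 2.70. The spike-in controls, relative to 1 h, stood at 1.16, 0.937 and 0.873 on the 2, 4 and 6 h arrays, and the 18S control read 3226, 4854, 2889 and 1872. Both were highest at 2 h and lowest at 6 h, as the Dusp medians were. The part of these in the result was not tested.

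Dusp1 (MKP-1) is a nuclear phosphatase of the JNK, p38 and ERK kinases and a classic activity-induced and glucocorticoid-induced gene. It read 737, 819, 559 and 591 at 1, 2, 4 and 6 h. Both early arrays lay above both late ones, and 2 h was 1.47-fold above 4 h and 1.11-fold above 1 h.

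Dusp2 (PAC-1), a nuclear phosphatase known from activated lymphocytes, had the widest span of all 33 members. It read 415 at 1 h and 499, 365 and 239 at 2, 4 and 6 h. The 6 h array was 2.09-fold below the 2 h array and 1.53-fold below the nearest other one, at 4 h. The 6 h array was the one with Ttr at 4482, and the part of this in the result was not tested.

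Dusp6 (MKP-3) is a cytoplasmic phosphatase of the ERK kinases and a known transcriptional target of that pathway. It read 967 and 1283 at 1 h and 2 h, then 1004 and 958 at 4 h and 6 h. The 2 h array stood 1.28-fold above the next, while the other 3 lay within 1.05-fold of each other. Its second probe set was dim, at 27.7, 118, 25.3 and 82.2, and passed the floor at 2 h alone, so a single probe set carries the gene. Dusp1, Dusp2 and Dusp6 were each highest at 2 h under all 3 scalings that were tried.

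The other phosphatases did not share 1 course. Dusp8, a phosphatase of JNK and p38 that is abundant in brain, read 1064, 1274, 1239 and 1176 from 1 to 6 h on one probe set and 690, 706, 729 and 810 on the other. Both were lowest at 1 h, but the first was highest at 2 h and the second at 6 h, and neither spanned more than 1.20-fold. Dusp19, an atypical small phosphatase, read 280, 346, 331 and 221, with 6 h 1.56-fold below 2 h. After scaling to a common median its highest array was 4 h. Its span was then under 1.5-fold, at 0.527 on the log2 scale, and so it was under quantile normalization, at 0.582. Dusp12, an atypical phosphatase with a zinc-binding domain, read 372, 267, 314 and 261 and was highest at 1 h. It thus went the opposite way to Dusp6 between 1 h and 2 h. Dusp9 passed the floor on 3 arrays of its brighter probe set, which read 101, 67.6, 113 and 168, at least 1.67-fold higher at 6 h than at 2 h. Dusp11, which acts on RNA, reached at most 104, and both Dusp16 probe sets were below the floor throughout, at 93.3 or less.

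The promoters of Dusp1, Dusp2 and Dusp6 are shown because these 3 phosphatases were highest at 2 h under all 3 scalings, and those of Dusp8 and Mapk10 because they hold the same full cyclic AMP response element as Dusp1. Each window is the RefSeq sequence (GRCm38.p6) from 250 bases before to 50 after the annotated start, 5′ to 3′ on the gene's strand. Capitals mark matches, on either strand, to the cyclic AMP response element TGACGTCA, its short core TGACG (which the full element contains), the AP-1 site TGANTCA, the early growth response site GCGNGGGCG or the serum response element. They are Dusp1 on the minus strand at chr17:26508423-26508722, Dusp2 on the plus strand at chr2:127335909-127336208, Dusp6 on the plus strand at chr10:99262981-99263280, Dusp8 on the minus strand at chr7:142095235-142095534 and the upstream start of Mapk10 on the minus strand at chr5:103211285-103211584.
Dusp1: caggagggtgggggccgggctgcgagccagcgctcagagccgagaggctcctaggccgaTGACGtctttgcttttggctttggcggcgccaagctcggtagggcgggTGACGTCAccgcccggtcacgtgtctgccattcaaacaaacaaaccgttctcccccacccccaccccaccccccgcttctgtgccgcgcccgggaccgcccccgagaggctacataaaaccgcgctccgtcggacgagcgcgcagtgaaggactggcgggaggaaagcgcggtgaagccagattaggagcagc
Dusp2: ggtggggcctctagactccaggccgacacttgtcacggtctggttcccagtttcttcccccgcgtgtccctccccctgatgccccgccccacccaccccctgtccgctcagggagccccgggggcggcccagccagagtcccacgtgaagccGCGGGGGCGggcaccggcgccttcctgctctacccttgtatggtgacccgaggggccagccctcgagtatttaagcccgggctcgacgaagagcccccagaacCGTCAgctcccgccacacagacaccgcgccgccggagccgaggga
Dusp6: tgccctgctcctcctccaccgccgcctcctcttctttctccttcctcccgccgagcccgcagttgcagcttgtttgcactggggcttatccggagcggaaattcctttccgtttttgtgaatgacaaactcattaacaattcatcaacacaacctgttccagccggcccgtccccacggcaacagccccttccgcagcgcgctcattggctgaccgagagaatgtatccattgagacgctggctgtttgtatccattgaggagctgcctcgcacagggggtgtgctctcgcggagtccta
Dusp8: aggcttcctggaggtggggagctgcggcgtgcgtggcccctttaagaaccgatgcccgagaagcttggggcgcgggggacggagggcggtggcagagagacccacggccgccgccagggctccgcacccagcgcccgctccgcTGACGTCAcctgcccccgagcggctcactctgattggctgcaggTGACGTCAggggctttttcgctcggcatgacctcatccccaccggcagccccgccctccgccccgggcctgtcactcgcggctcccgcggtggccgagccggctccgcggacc
Mapk10: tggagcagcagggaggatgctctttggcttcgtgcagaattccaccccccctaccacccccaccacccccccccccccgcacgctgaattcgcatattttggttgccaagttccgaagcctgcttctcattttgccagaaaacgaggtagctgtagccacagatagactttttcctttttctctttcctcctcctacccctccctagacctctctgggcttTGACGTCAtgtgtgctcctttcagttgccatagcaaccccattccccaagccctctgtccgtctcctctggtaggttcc

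The Dusp1 window held the full cyclic AMP response element 143 bases upstream of the start and a separate core site 191 bases upstream. Dusp2 held an early growth response site 98 bases upstream and a core site just after the start. The Dusp6 window held none of the 5 motifs, and Dusp8 held the full element at 107 and at 63 bases upstream. Dusp1 and Mapk10, both highest at 2 h, thus share the full element with Dusp8, whose probe sets had no common highest hour. The table had 44 windows for 34 of the 40 genes. The full element was in 3 of 44, or 6.82%, and in 1.79% of all 32851 windows, and the core was in 43.2% and 20.8%. The early growth response site was in 13.6% and 5.55%, the AP-1 site in 2.27% and 7.81%, and the serum response element in 0 of 44 and 1.63%. Members' windows were richer in G and C, with a median of 64.5% against 52.7% over all windows, and 3 of these motifs contain CG. A match is a description of letters and not of a bound site.

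The MAP kinases themselves had their highest arrays at different hours. Of 10 probe sets, 6 were above the floor throughout, and these were highest at 1 h in 1 case, at 2 h in 2 and at 6 h in 3, where the shares of all probe sets were 24.8%, 28.7% and 23.5%. Mapk10 (JNK3), the neuronal Jun N-terminal kinase, read 4990, 5325, 4721 and 4880 at 1, 2, 4 and 6 h. Its second probe set, of a type shared within a sequence family, read 1448, 2204, 1875 and 1571. This one spanned 1.52-fold, but under 1.5-fold after scaling to a common median, at 0.573 on the log2 scale. Both probe sets were highest at 2 h under all 3 scalings, but by 1.07-fold and 1.18-fold over the next array (1.01-fold and 1.10-fold with a common median). They were lowest at different hours.

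Mapk8 (JNK1) read 1161, 997, 1007 and 1194 from 1 to 6 h, and Mapk14 (p38 alpha) read 1008, 941, 892 and 1113. Both were lower at 2 h and 4 h than at 1 h and 6 h, within 1.20-fold and 1.25-fold. Mapk6 (ERK3), an atypical MAP kinase, had the same shape at 2 h, with 561, 433, 534 and 615. It was lowest at 2 h, the hour at which Dusp6 was highest. Mapk12 (p38 gamma) was the only member above the floor that was lower at each later time, at 231, 191, 162 and 154, as were 314 of all 6448 probe sets. Its span was 1.51-fold, and after scaling to a common median it was under 1.5-fold, at 0.51 on the log2 scale. Mapk7 (ERK5) was below the floor at 43.5, 28.3 and 75.7 from 1 to 4 h. It read 152 at 6 h, 1.51-fold above the floor and so at least 1.51-fold above its other hours. Mapk9 (JNK2) stayed within 80.6 and 108, around the floor, and Mapk13 (p38 delta) was at 9.0 or below on all arrays.

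Among the MAP2K genes, none of the 6 probe sets above the floor throughout spanned 1.5-fold, and 4 of 6 were highest at 1 h, against 24.8% of all probe sets. After scaling to a common median this was 2 of 6, against 20.1%. Map2k1 (MEK1), which activates kinases of the ERK type, read 2812, 2716, 2542 and 2743, a span of 1.11-fold. Map2k2 (MEK2), its paralog, read 650 at 1 h and 577, 451 and 471 at 2, 4 and 6 h. Both early arrays lay above both late ones for Map2k2, with 4 h 1.44-fold below 1 h, and for Map2k1 the early and late arrays overlapped. Map2k3 (MKK3), which activates p38, read 873, 803, 681 and 839 on one probe set and 345, 283, 313 and 241 on another. These agreed on 1 h as the highest array, though with a common median the first was highest at 6 h. They differed in the lowest, and one more was below the floor. Map2k4 (MKK4), an activator of JNK and p38, read 558, 598, 658 and 545. Map2k5 (MEK5), the activator of ERK5, read 815, 710, 709 and 834. Map2k6 (MKK6) was dim on both probe sets, with 1 value above the floor, 135 at 2 h.

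Some probe sets of the MAP3K and MAP4K genes, at the top of the cascade, were too dim to compare, as on the array at large. Of all 12422 probe sets other than controls, 6448 were above the floor throughout and 3830 below it on every array. Of the 21 probe sets here, 8 were above the floor throughout and 8 were below it on every array. Of the first 8, 6 were lowest at 6 h, against 26.2% of all probe sets, and 4 spanned at least 1.5-fold, against 27.9%. After scaling to a common median, 3 of 8 were lowest at 6 h, against 18.1% of all probe sets. With that scaling the spans of Map3k1 and 1 Map3k3 probe set were under 1.5-fold, at 0.51 and 0.56 on the log2 scale. Map3k4 (MEKK4), a kinase activated by Gadd45 proteins, read 541 and 328 at 1 h and 2 h, then 285 and 333 at 4 h and 6 h. The 1 h array was 1.63-fold above the nearest other, and the later 3 lay close together. Its second probe set was below the floor on all arrays, at 25.8 or less, so the value at 1 h rests on 1 probe set of a type that can read similar transcripts.

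Map3k7 (TAK1), a kinase of transforming growth factor beta and cytokine signalling, read 221, 140, 185 and 161, lowest at 2 h and 1.58-fold below 1 h there. Map3k1 (MEKK1) read 185, 147, 148 and 123, and 2 further probe sets were below the floor. Map3k3 (MEKK3) had 3 probe sets above the floor throughout. The first read 365, 376, 368 and 356, the second 186, 232, 158 and 145. The last read 271, 215, 243 and 192. All were lowest at 6 h, although the first was lowest at 1 h with a common median, while the second was highest at 2 h and the last at 1 h, and at 2 h these lay on opposite sides of their own other times, so the gene has no settled course.

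Map3k5 (ASK1), a stress-activated kinase, read 125, 95.7, 185 and 140 and was at least 1.83-fold higher at 4 h than at 2 h, where it was below the floor. Map4k4 (HGK) read 717, 800, 865 and 688, and Map4k1 (HPK1), a kinase of blood cells, read 175, 216, 218 and 165. Both were highest at 4 h and lowest at 6 h, within 1.26-fold and 1.32-fold, and after scaling to a common median both were lowest at 1 h. Map3k11 (MLK3) passed the floor at 1 h and 6 h, at 127 and 129, and read 76.5 and 72.7 at 2 h and 4 h. Map3k6 passed it at 6 h alone, at 120, and Map3k8 at 1 h alone, at 102. Map3k2 and Map3k12 were below it on every array.

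**Figure D2:**
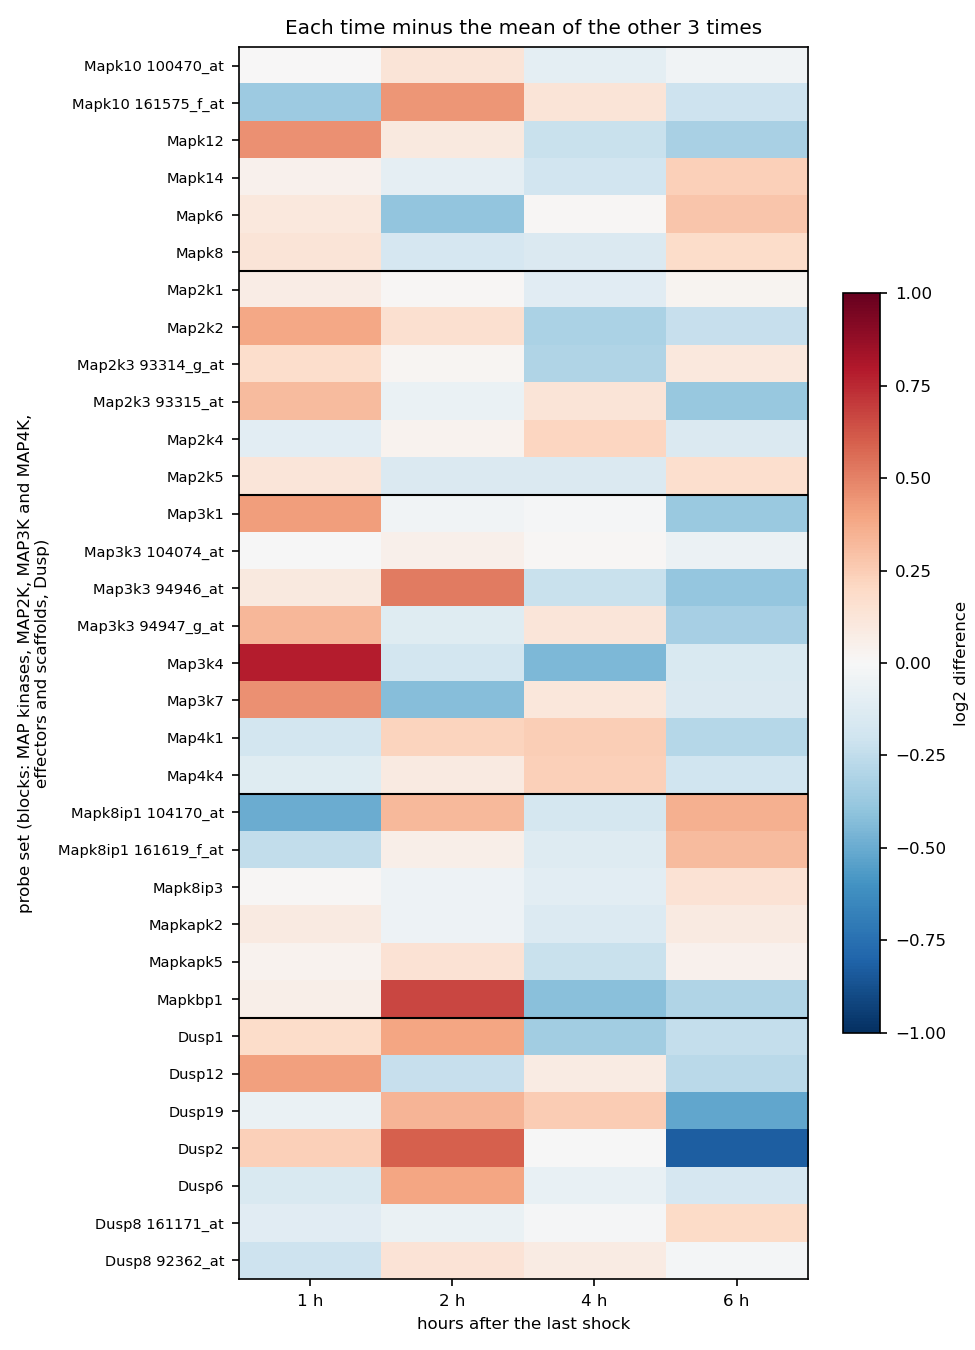
Log2 difference of each hour from the mean of the other 3 hours, for the 33 members above the floor on all 4 arrays, with rows grouped by role and red for higher. The strongest cells are Map3k4 at 1 h (0.78), Mapkbp1 at 2 h (0.67) and Dusp2 at 2 h (0.59) and 6 h (−0.83), and most other rows are paler.

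Scaffolds and downstream kinases included the gene whose probe sets agreed on both the highest and the lowest hour. Mapk8ip1 (JIP1), a scaffold that holds JNK with its upstream kinases and rides on kinesin in axons, read 1807, 2766, 2135 and 2816 at 1, 2, 4 and 6 h. Its second probe set, of a type shared within a sequence family, read 401, 471, 426 and 539. Both gave the same order of the 4 hours, lowest at 1 h and highest at 6 h, with spans of 1.56-fold and 1.34-fold. Under quantile normalization the first probe set was highest at 2 h, while under the first scaling its 2 h value was 0.98 of the 6 h value.

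Mapk8ip3 (JIP3), another scaffold of JNK and motor proteins, read 2426, 2343, 2282 and 2601, within 1.14-fold. Mapkbp1, a JNK-binding protein, read 199 at 1 h and 274, 156 and 165 at 2, 4 and 6 h. It was 1.37-fold higher at 2 h than at the next array under the main scaling, the largest such lead at 2 h among the members, although it is dim. Mapkapk2 (MK2), the main kinase downstream of p38, read 972, 903, 863 and 971, with a dim second probe set. Mapkapk5 (MK5) read 435, 461, 381 and 437, and its highest hour was 6 h after scaling to a common median.

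Over all 33 members, 11, 11, 3 and 8 had their highest array at 1, 2, 4 and 6 h. The shares of all probe sets highest at these hours were 24.8%, 28.7%, 23.0% and 23.5%. The lowest array was 1 h for 5 members, 2 h for 3, 4 h for 12 and the last hour for 13, against 22.8%, 26.7%, 24.4% and 26.2% of all probe sets. These counts depend on the scaling. With a common median, which moved 2 h against 6 h by −0.12 (log2) over all probe sets, the members' highest arrays numbered 8, 7, 6 and 12, and the shares of all probe sets were 20.1%, 18.9%, 28.1% and 32.9%. Under both scalings fewer members were highest at 4 h than the share of all probe sets would give.

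The median member lay 0.07 (log2) above its other times at 1 h and 0.02 above at 2 h, and at −0.09 and −0.10 for the late arrays, over 36 members with a mean above the floor. The medians over all 7431 such probe sets were 0.01, 0.02, −0.01 and −0.01. Relative to all probe sets the members were thus at 0.05, 0.01, −0.08 and −0.09, and the common median gave 0.05, 0.01, −0.09 and −0.09. At 4 h 23 of 36 members (63.9%) were below their other times, against 51.8% of all probe sets, and at 6 h 21 of 36 (58.3%), against 51.6%.

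**Figure D3:**
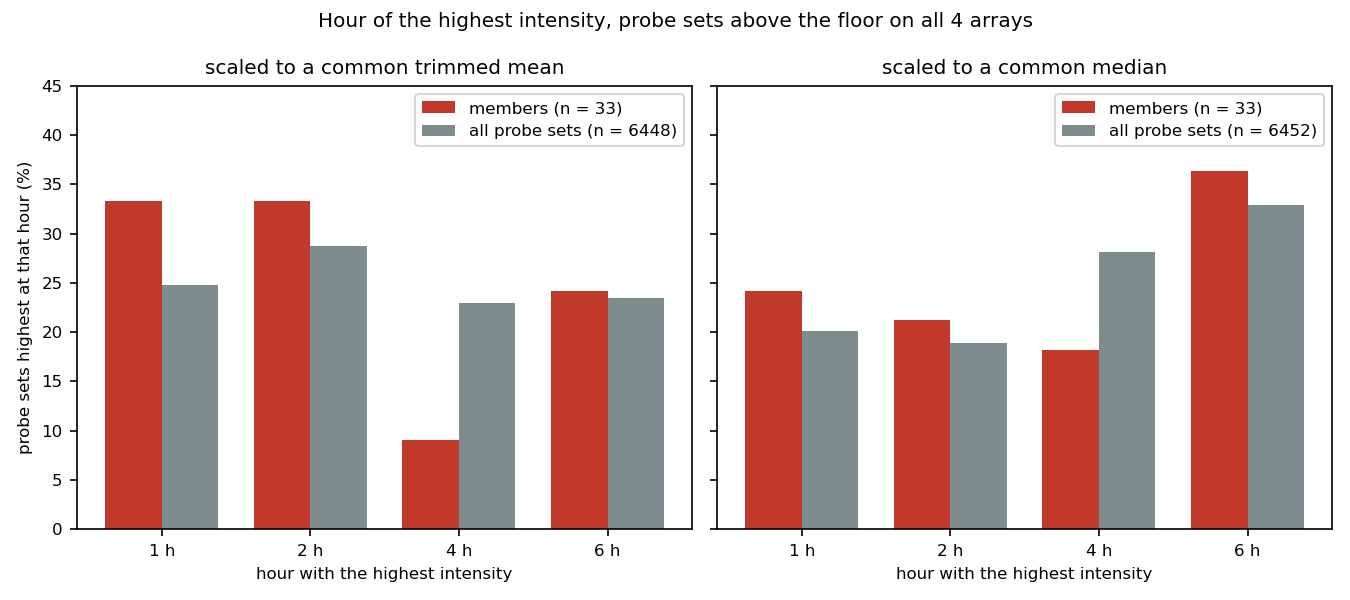
Percent of probe sets with their highest intensity at each hour, for the 33 members beside all probe sets above the floor, under the trimmed mean scaling (left) and the median scaling (right). Members reach 33.3% at 1 h and at 2 h and 9.09% at 4 h on the left, and on the right both sets move toward 6 h.

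Both early arrays stood above both late ones for 7 of 33 members (21.2%), against 21.0% of all probe sets. They were Dusp1, Dusp2, Map2k2, Mapk12, Mapkbp1 and 1 probe set each of Mapk10 and Map3k3, whose other probe sets did not show it. The reverse held for 1 of 33, a Dusp8 probe set, against 18.3% of all. After scaling to a common median the shares were 18.2% of members and 12.4% of all for early above late, and 9.09% and 29.6% for the reverse. Early values above late ones were thus about as common as elsewhere under the first scaling, and late values above early ones were rarer under both scalings.

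Of the 17 genes with several probe sets, 5 had at least 2 above the floor throughout, 8 had 1 and 4 had none. Among the 5, the probe sets agreed on the highest hour for 3 genes (Mapk8ip1, Mapk10 and Map2k3) and on the lowest hour for 3 (Mapk8ip1, Dusp8 and Map3k3). Mapk8ip1 alone of the 5 agreed on both. With a common median 2 genes agreed on the highest hour (Mapk8ip1 and Mapk10) and 2 on the lowest (Mapk8ip1 and Dusp8). Under quantile normalization 2 agreed on the highest (Map2k3 and Mapk10) and 2 on the lowest (Mapk8ip1 and Dusp8). Further probe sets of Map2k1, Map3k7, Map3k8, Mapk8, Mapkapk2, Dusp9 and Map4k4 were below the floor on every array, at 54.3 or less. One more of Map4k4 read 12.7, 17.7, 17.1 and 103 and passed it at 6 h alone. At 6 h alone Mapk7 and Map3k6 passed it as well, on the array with Ttr at 4482, and the part of this was not tested.

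**Figure D4:**
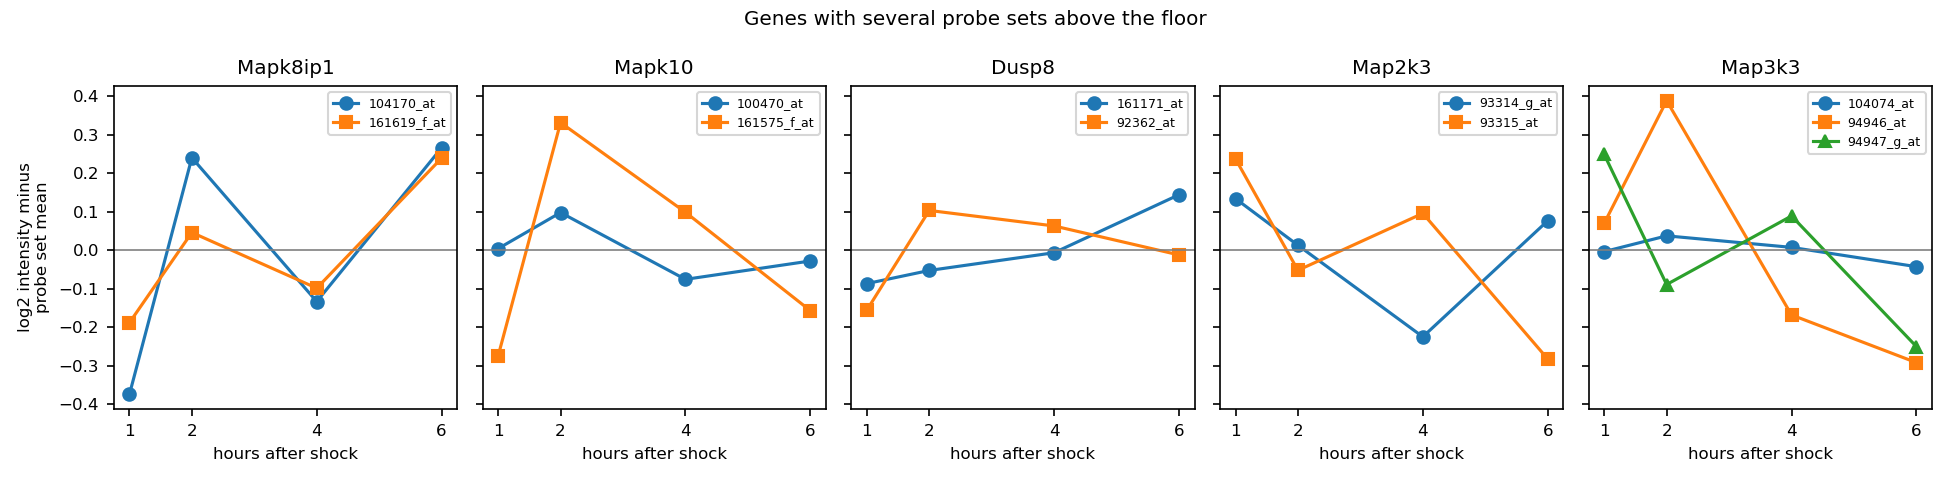
Log2 intensity minus the mean of each probe set over the 4 arrays, against hours after the last shock, for the 5 genes with several probe sets above the floor. The curves of Mapk8ip1 keep the same order of hours, and those of Map3k3 part at 2 h.

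Other genes of the pathway were read from 3 lists, under the main scaling alone. Upstream of the cascade, from Ras to its exchange factors and adaptors, 19 of 23 genes were on the array and 11 probe sets of 9 genes were above the floor throughout. Of these 11, 1 spanned 1.5-fold (9.09%, against 27.9% of all probe sets), a probe set of the small GTPase Rap1a at 207, 273, 314 and 258. The other Rap1a probe set read 155, 108, 158 and 143. Both were highest at 4 h, but the first was lowest at 1 h and the other at 2 h. Grb2, the adaptor that brings the Ras activator Sos to receptors, read 1331, 1575, 1054 and 1113, with both early arrays above both late ones. This held for 2 of the 11, Grb2 and Sos2, against 21.0% of all probe sets, and the reverse for 3, against 18.3%. These were the GTPase Rac1 at 12648, 12145, 16814 and 17848, the Ras exchange factor Rasgrf1 at 2213, 2353, 2884 and 2920, and the GTPase Cdc42 at 827, 906, 1013 and 1024.

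Among substrates and targets of the kinases, 14 probe sets of 13 genes were above the floor throughout, and 7 of 14 were highest at 2 h, against 28.7% of all probe sets. The median difference (log2) of the 15 probe sets with a mean above the floor was 0.14 at 2 h and −0.15 at 6 h. That of all such probe sets on the array was 0.02 and −0.01. With a common median 18.9% of all probe sets were highest at 2 h, and the count for this list was not made. The 2 h array also had the highest actin ratio, 2.70, and the part of this was not tested. Mknk1, a kinase that phosphorylates the translation factor eIF4E downstream of ERK and p38, read 193 and 562 at 1 h and 2 h, then 409 and 304 at 4 h and 6 h. Its 2 h array was 2.91-fold above its 1 h array, the widest span of the list after Fos, at 4.52-fold. Mknk2, its paralog, was within 1.24-fold, at 546, 583, 510 and 470. Elk1, the ERK-activated partner of serum response factor, was dim, at 182, 161, 214 and 135. Egr1 on its brighter probe set read 1277, 2195, 1737 and 1299, a span of 1.72-fold. Both early arrays lay above both late ones for 5 of the 14, against 21.0% of all probe sets. The reverse held for 1, against 18.3%.

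Among restraints of the pathway, 11 of 17 genes were on the array and 10 probe sets were above the floor throughout, of which 1 spanned 1.5-fold. That was Spry4, a feedback inhibitor of Ras to ERK signalling and itself a target of it, at 231, 360, 203 and 270 at 1, 2, 4 and 6 h. It was highest at 2 h, but 2 of the 10 restraints were highest at that hour, against 28.7% of all probe sets. At 4 h 5 of 10 were highest, against 23.0%. Both early arrays stood above both late ones for 1 of 10 and below them for 3, against 21.0% and 18.3% of all probe sets. The median difference of the restraints at 2 h was −0.10 (log2), on the other side of 0 from the Dusp median of 0.24. That of all probe sets was 0.02. Ptpn5, the neuronal tyrosine phosphatase STEP, read 1242, 1020, 1083 and 1181, and Ptprr read 1600, 1763, 1824 and 1647. Neither of these neuronal phosphatases of ERK spanned more than 1.22-fold.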

How the data were processed

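The deposited table holds 1 linear intensity per probe set and array, and the values show that the authors had brought each array to a trimmed mean of 500.3. The software behind them is not given in the sources used here. Here each array was rescaled to 1 trimmed mean (2% left out at each end, the 66 controls excluded), which changed values by factors of 0.999 to 1.001. Values under the 40th percentile, 100.6, were set to that floor before log2 was taken, so folds against it are bounds.

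Genes were named from the platform's annotation. All 40 member genes were found in RefSeq (GRCm38.p6) under the same symbol, and 2 probe sets with several symbols were left out. Members and lists were chosen with earlier results of these data known. Values on all arrays are given for members apart at 1 hour, the 4 widest spans per role, one-way courses, genes with several probe sets and a core set. Other members are named with their values or range, and the pathway genes by the widest spans and some chosen after their values were seen. No test was possible with 1 array per time, and precision is limited by the 4 arrays. The steps were tested on simulated data. Alternatives were other scalings, floors at the 20th and 60th percentiles, fold limits of 1.3 and 2, plain probe sets, 1 probe set per gene and fewer arrays. Python 3.11.15, NumPy 2.4.6, pandas 2.3.3, SciPy 1.17.1 and matplotlib 3.10.9 were used.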

Additional observations from a re-analysis of the deposited data

How the results depend on the processing

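The members' median difference kept its sign at 1, 4 and 6 h under every alternative run. At 2 h it was −0.058 (log2) after scaling to a common median, where that of all probe sets was −0.065, and it was above 0 under the others. Counts moved more, and the cause was not tested beyond the smaller number of members that a higher floor or fewer probe sets leaves. Scaling to a common median gave 7 members highest at 2 h, 6 highest at 4 h, 6 spanning 1.5-fold and 3 with early below late. Quantile normalization gave 6 spanning 1.5-fold. The floor at the 20th percentile left 39 members, with 6 highest at 4 h and 3 with early below late. The floor at the 60th percentile left 22 members, with 5 highest at 1 h, 7 at 2 h, 3 spanning 1.5-fold, 0 apart below and 3 with early above late. A limit of 1.3-fold gave 19 spans and 2 members apart above, and 2-fold gave 1 span and 0 apart in each direction. Plain probe sets alone left 26 members, with 7 highest at 1 h and 0 apart above, since Map3k4 is read by another type. Keeping 1 probe set per gene left 27 members, with 0 early below late.

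Without the 2 h array 9 of 35 members were highest at 4 h and 6 spanned 1.5-fold. Without the 6 h array 5 of 33 spanned it and 0 were apart below. Shares of all probe sets are not given for the counts so far under other floors, fold limits, probe set choices or fewer arrays. Nor are they given for spans under other scalings, so these counts describe the members alone. Alternatives chosen after seeing the data set 1 h against 4 h and 6 h, with 16 of 35 members above and 7 below (36.7% and 33.1% of all probe sets), and 1 h and 2 h against 4 h, with 15 and 4 of 33 (35.5% and 32.1%). Of single members, 25 of 33 kept their highest hour under all 3 scalings. A Map3k3 probe set turned round, with its highest over lowest array at −0.037 (log2) after scaling to a common median, and 6 of the 10 spans of at least 1.5-fold fell under that limit with the floor at the 60th percentile. No paired analysis was possible because each time has 1 array. Signal over background limits the 28 members not above the floor on all arrays.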
